A study of Mus musculus with 12 samples.

Results

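The insulin-like growth factor (IGF) genes followed here are the ligands Igf1 and Igf2, the receptors Igf1r, Igf2r and Insr, and the binding proteins Igfbp2, Igfbp3, Igfbp4, Igfbp5 and Igfbp7. They were chosen by symbol, and all 10 were found once among the 32285 genes of the deposited matrices. The libraries were 3′ single-cell RNA-seq of mouse gonads at about embryonic day 12, dissected away from the mesonephros, with 2 libraries in each of 6 groups. XX and XY gonads came from wild-type (WT) mice, from the -KTS KO line (homozygous for an allele that cannot make the WT1 splice variants lacking the amino acids KTS) and from the +KTS KO line (homozygous for an intron 9 splice mutation of the Frasier type, which removes the variants that contain KTS and raises those that lack it). All lines were on a mixed background, and gonads of several embryos were pooled for the -KTS KO libraries. Nothing in the sources ties a replicate number to a litter or a day. The p-values below therefore judge differences only against the spread between these replicate libraries, estimated over all 6 groups together.

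IGF1 and IGF2 are secreted growth factors that signal through the receptor tyrosine kinases IGF1R and INSR, while IGF2R, also the cation-independent mannose-6-phosphate receptor, takes IGF2 to the lysosome. The IGF-binding proteins hold the ligands outside the cell and either limit or prolong their action, and IGFBP7 is a related protein that binds IGFs weakly. In the mouse, Igf2 is expressed from the paternal allele and Igf2r mainly from the maternal one. Insulin and IGF receptors are needed for testis determination, and mouse XY gonads that lack both Insr and Igf1r develop as ovaries.

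The members lie on 7 chromosomes of GRCm38. Igfbp2 (chr1:72824503-72852474, plus strand) and Igfbp5 (chr1:72857932-72874884, minus strand) are neighbours that are transcribed towards each other. Igf1 spans chr10:87858265-87937042 and Igf2 spans chr7:142650766-142666816, on the chromosome that also carries Igf1r (chr7:67952827-68233668). Igf2r spans chr17:12682406-12769664, Insr spans chr8:3122061-3279617 and Igfbp7 spans chr5:77349240-77408041. Igfbp3 (chr11:7206086-7213923) and Igfbp4 (chr11:99041244-99054392) share a chromosome.

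WT1 and EGR proteins bind GC-rich DNA through zinc fingers, so the 250 bases before each RefSeq start were searched on both strands for GCGNGGGCG (an EGR-type site) and for GCGTGGGAG (a WT1-type site). RefSeq starts on GRCm38.p6 gave 13 such windows for 9 members, with none for Insr and 2 for Igfbp2, of which the first is shown. Only 1 window, that of Igf2r, held the EGR-type letters, beginning 29 bases before the start, and none held the WT1-type letters. Of all 32851 windows of the same length, 4.7% held the first motif and 0.405% the second. The windows of Igfbp2 and Igfbp7 are shown with that of Igf2r, the motif in capitals. These 2 members had the largest fold changes against WT of the same sex in gonadal somatic cells, given below. A missing match says only that these letters are not in this window.
Igfbp2 (chr1:72824230-72824479, plus strand): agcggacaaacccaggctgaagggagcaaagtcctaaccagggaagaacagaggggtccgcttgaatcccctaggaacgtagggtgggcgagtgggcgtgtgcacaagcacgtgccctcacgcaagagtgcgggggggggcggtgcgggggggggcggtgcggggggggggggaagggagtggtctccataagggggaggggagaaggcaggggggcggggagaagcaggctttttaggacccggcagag
Igfbp7 (chr5:77408046-77408295, minus strand): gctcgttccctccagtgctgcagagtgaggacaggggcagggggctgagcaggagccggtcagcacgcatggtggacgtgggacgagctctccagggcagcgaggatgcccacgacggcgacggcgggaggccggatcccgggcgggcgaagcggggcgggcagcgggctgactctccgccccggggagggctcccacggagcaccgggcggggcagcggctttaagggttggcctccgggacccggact
Igf2r (chr17:12769707-12769956, minus strand): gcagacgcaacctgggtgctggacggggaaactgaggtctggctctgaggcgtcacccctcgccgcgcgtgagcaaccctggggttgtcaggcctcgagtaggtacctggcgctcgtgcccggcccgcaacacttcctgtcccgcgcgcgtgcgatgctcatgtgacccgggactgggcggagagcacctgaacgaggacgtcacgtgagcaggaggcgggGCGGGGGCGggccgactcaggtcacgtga

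After filters and removal of likely doublets, 4665 to 8655 cells remained per library. Each gene is given as CPM, its unique molecular identifiers (UMIs) per 1000000 of all UMIs, summed over the gonadal somatic cells of a library (4077 to 7703 cells), which leaves out germ, endothelial, blood, Schwann-precursor-like and mesonephric-tubule-like cells. These are 3′ counts, not scaled to length, so levels are compared between groups and not between genes. Xist lay between 537 and 749 CPM in XX and did not exceed 0.156 CPM in XY, and 4 Y-linked genes together were at most 0.0445 CPM in XX and 129 to 181 CPM in XY. Wt1 was at 158 to 309 CPM in all 12 libraries, but 3′ counts do not tell its splice variants apart and so do not check the genotype labels. The share of somatic cells named as supporting lineage was 38.1% to 54.2% in WT, 20.3% to 27.6% in -KTS KO and 2.69% to 3.97% in XX +KTS KO. The XY +KTS KO replicates stood apart from each other, with 49.6% and 2.8% supporting cells and with 3200 and 709 CPM for 10 immediate early genes summed, where the other libraries held 465 to 932 CPM. In sums over all somatic cells, fewer cells of a type and less RNA per cell cannot be told apart. The gonadal somatic markers Gata4 and Nr5a1 were at 67.2 to 127 CPM and 12.2 to 83.2 CPM, with Nr5a1 at 12.2 to 21.4 CPM in the -KTS KO libraries. In the same cells, summed markers of endothelial cells were at 37.9 to 55.6 CPM, of mesonephric tubules at 2.56 to 16.2 CPM of immune cells at 0.282 to 1.25 CPM, of germ cells at 3.91 to 54.8 CPM and of perivascular cells at 13.6 to 37.9 CPM over all libraries. Summed erythroid markers moved with genotype, at 286 to 815 CPM in WT, 94.8 to 203 CPM in -KTS KO and 123 to 300 CPM in +KTS KO, and their part in the results on somatic sums was not tested. The unnamed share of somatic cells was highest in the 2 XX +KTS KO libraries (50.1% and 43.4%) and replicate 2 of XY +KTS KO (43.2%), against 0.579% to 23.9% in the other 9 libraries. They count in the somatic sums and in no named class, and the largest such cluster was led by Cyp11a1, Pnmt and Inha. Whether these cells belong to the supporting lineage was not tested, and the study's own clusters of +KTS KO gonads include pre-granulosa cells. Over all somatic cells, pre-supporting markers summed to 1390 and 1200 CPM in XX WT and 1360 and 1020 CPM in XX +KTS KO. Pre-granulosa markers summed to 992 and 1020 CPM and to 237 and 195 CPM in the same libraries. Libraries shared 6 to 46 cell barcodes per pair, at most 0.451% of the smaller library.

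**Figure D1:**
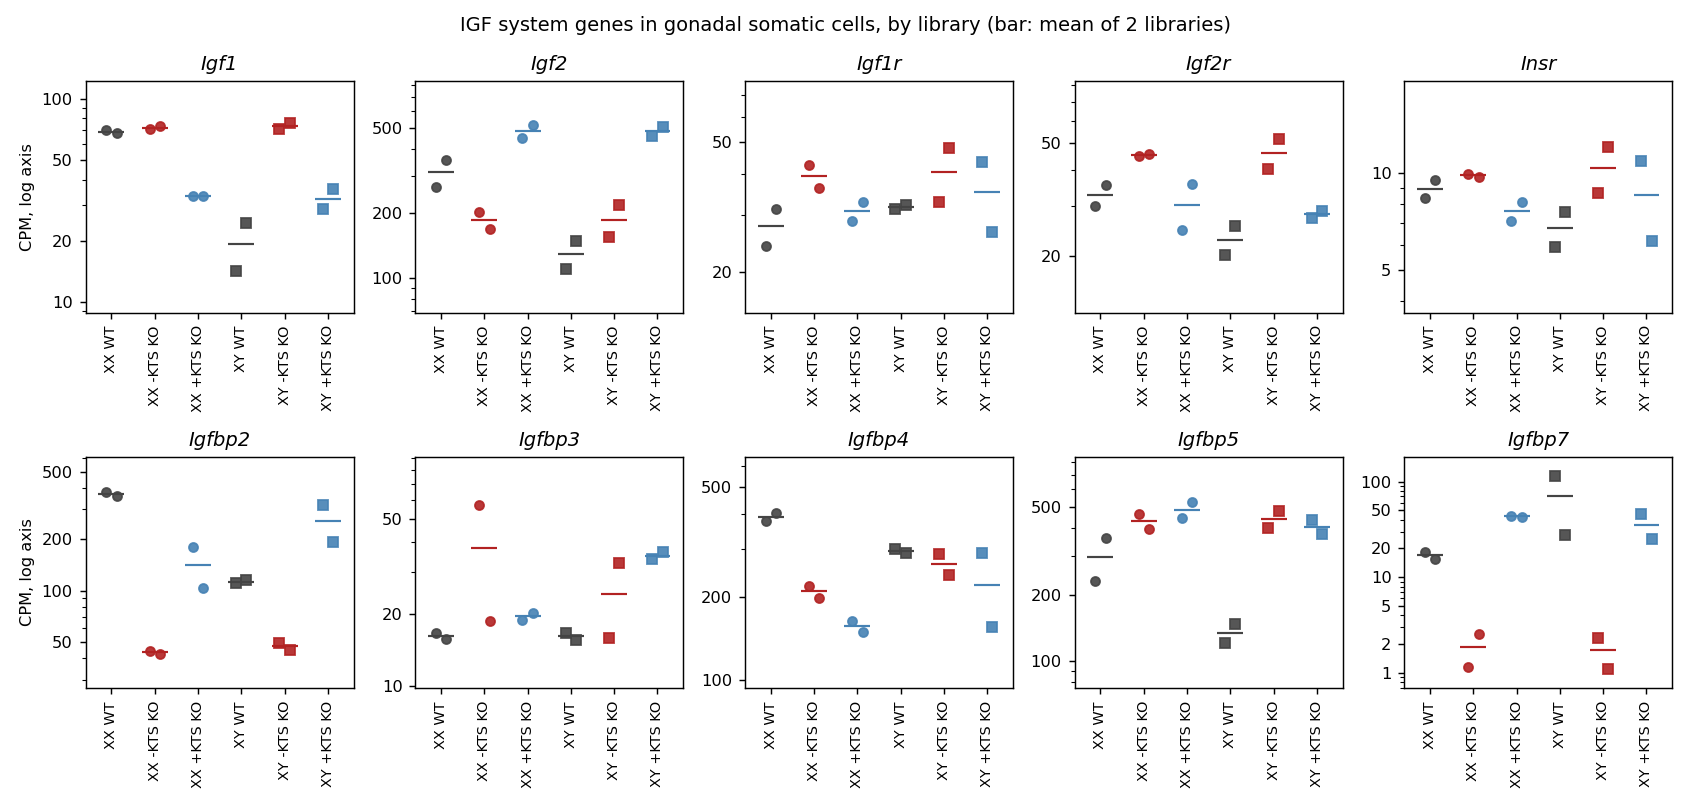
CPM of each IGF member in gonadal somatic cells on a log axis, with 1 point per library and 2 libraries in each of the 6 groups. Igfbp7 in the 4 -KTS KO libraries sits at 1.10 to 2.54 CPM, below all 8 other libraries, which sit at 15.5 to 114 CPM, and Igfbp2 sits at 42.7 to 49.6 CPM in the -KTS KO libraries.

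Among the ligands, Igf1 differed between the sexes in WT and was at like levels in the -KTS KO libraries of both sexes. It was at 70.2 and 67.7 CPM in XX WT against 14.2 and 24.5 CPM in XY WT, and at 71.2 and 76.4 CPM in XY -KTS KO against 70.7 and 73.2 CPM in XX -KTS KO. All 4 -KTS KO libraries were therefore above XX WT by a narrow margin and above both XY WT libraries by a wide one. The +KTS KO libraries lay between the WT groups, at 33.3 and 33.4 CPM in XX and 28.6 and 35.8 CPM in XY. In edgeR (quasi-likelihood F test, p adjusted by Benjamini-Hochberg over all genes, as throughout), Igf1 was lower in XY WT than in XX WT (log2 fold change -1.78, adjusted p = 0.00103), rose in XY -KTS KO against XY WT (1.91 ± 0.216 SE, adjusted p = 0.000338) and fell in XX +KTS KO against XX WT (-1.01 ± 0.21, adjusted p = 0.0259). The difference between XX -KTS KO and XX WT was 0.12 ± 0.208 (adjusted p = 0.75). The call in XX +KTS KO was lost without any 1 of its 4 libraries (adjusted p = 0.115 to 0.212), with log2 fold changes of -1.06 to -0.96. Compared directly, it was higher in -KTS KO than in +KTS KO in XX (1.13, adjusted p = 0.00476) and in XY (1.24, adjusted p = 0.00286). Both effects of genotype on Igf1 differed between the sexes by a test of the interaction, by 1.79 ± 0.297 for -KTS KO (adjusted p = 0.0162) and by 1.68 ± 0.297 for +KTS KO (adjusted p = 0.017). The first was lost without any 1 of 6 libraries (adjusted p = 0.0629 to 0.0715) and the second without any 1 of the 4 XX libraries (adjusted p = 0.0545 to 0.0955).

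Igf2, the main fetal growth factor of the family, had its highest levels in the +KTS KO libraries of both sexes. These held 451 and 519 CPM in XX and 459 and 509 CPM in XY, against 265 and 357 CPM in XX WT and 110 and 148 CPM in XY WT. The -KTS KO libraries held 203 and 169 CPM in XX and 155 and 219 CPM in XY, below XX WT and above XY WT. Igf2 rose in XY +KTS KO against XY WT (1.84 ± 0.214, adjusted p = 0.0012), also without replicate 1 of XY +KTS KO, the library high in immediate early genes (1.99). It was lower in XY WT than in XX WT (-1.21, adjusted p = 0.00583), a call lost without XX WT replicate 2 (-1.01, adjusted p = 0.0611) or XY WT replicate 1 (-1.07, adjusted p = 0.0604). In XX the differences from WT did not pass (+KTS KO 0.68, adjusted p = 0.102; -KTS KO -0.68, adjusted p = 0.0528). Compared directly, Igf2 was lower in -KTS KO than in +KTS KO in XX (-1.36, adjusted p = 0.0018) and in XY (-1.33, adjusted p = 0.00188). A summed list of fetal Leydig cell markers moved with the +KTS KO genotype in somatic cells (173 to 193 CPM in XX and 97.6 to 149 CPM in XY +KTS KO, 30.5 to 56.5 CPM in the other 4 groups), and its part in the Igf2 result was not tested.

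The receptors varied less than the ligands. Igf2r was at 40.5 to 51.8 CPM in the 4 -KTS KO libraries and at 20.1 to 35.7 CPM in the other 8, with no overlap. It rose in XY -KTS KO against XY WT, from 20.1 and 25.4 CPM to 40.5 and 51.8 CPM (0.99 ± 0.179, adjusted p = 0.00388). In XX the values were 30 and 35.5 CPM in WT and 44.9 and 45.7 CPM in -KTS KO, a difference of 0.53 that did not pass (adjusted p = 0.0711). Igf2r was higher in -KTS KO than in +KTS KO in XX (0.61, adjusted p = 0.0382) and XY (0.77, adjusted p = 0.0126). The XX call was lost without XX +KTS KO replicate 1 (0.40, adjusted p = 0.285) or either XX -KTS KO replicate (adjusted p = 0.135 and 0.143), and the XY call without XY -KTS KO replicate 2 (0.61, adjusted p = 0.0913) or XY +KTS KO replicate 1 (0.64, adjusted p = 0.0789). Igf1r, the signalling receptor for both ligands, ranged from 24.0 to 48.2 CPM and Insr, the insulin receptor, from 5.91 to 12 CPM. Neither passed in any comparison of somatic cells.

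Igfbp2 fell in -KTS KO in both sexes. XX WT held 382 and 358 CPM and XY WT 111 and 115 CPM, while XX -KTS KO held 44.5 and 42.7 CPM and XY -KTS KO 49.6 and 45.1 CPM. Every -KTS KO library was thus below every other library. The fall was -3.03 ± 0.285 in XX (adjusted p = 0.000311) and -1.29 ± 0.268 in XY (adjusted p = 0.00766), and the sexes differed by 1.74 ± 0.376 (adjusted p = 0.0398). The XY call was lost without XY -KTS KO replicate 2 (-1.21, adjusted p = 0.0591), and that difference between the sexes without any 1 of the 8 libraries (adjusted p = 0.076 to 0.144). The +KTS KO libraries were at 180 and 103 CPM in XX and 319 and 192 CPM in XY, so that XX +KTS KO lay below XX WT and XY +KTS KO above XY WT. Igfbp2 fell in XX +KTS KO (-1.34 ± 0.268, adjusted p = 0.0224) and rose in XY +KTS KO (1.07 ± 0.267, adjusted p = 0.0301), with a difference between the sexes of 2.41 ± 0.378 (adjusted p = 0.0106). Compared directly, it was lower in -KTS KO than in +KTS KO in XX (-1.69, adjusted p = 0.0022) and in XY (-2.36, adjusted p = 0.00037). The replicates of +KTS KO spread widely: the XX call was lost without XX +KTS KO replicate 2 (-0.95, adjusted p = 0.115) or XX WT replicate 1 or 2 (adjusted p = 0.127 and 0.0857), and the XY call without XY +KTS KO replicate 1 (0.77, adjusted p = 0.126) or XY WT replicate 1 or 2 (adjusted p = 0.13 and 0.104).

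Igfbp7 fell in -KTS KO in both sexes. It was at 1.16 and 2.54 CPM in XX -KTS KO against 18.5 and 15.5 CPM in XX WT, and at 2.33 and 1.10 CPM in XY -KTS KO against 114 and 27.9 CPM in XY WT. The 2 XY WT libraries differed from each other more than those of any other group, so the size of the XY difference depends on which is used. The fall was -3.17 ± 0.676 in XX (adjusted p = 0.0122) and -5.45 ± 0.735 in XY (adjusted p = 0.000833). In XY it was -3.99 without XY WT replicate 1, -6.15 without XY WT replicate 2 and -6.11 without XY -KTS KO replicate 1, past the threshold each time. In XX it was -3.80 without XX -KTS KO replicate 2, and the call was lost without XX WT replicate 1 (-3.00, adjusted p = 0.056) or XX -KTS KO replicate 1 (-2.69, adjusted p = 0.102). In +KTS KO, Igfbp7 was at 44.2 and 43.0 CPM in XX and 45.7 and 25.4 CPM in XY, and neither difference from WT passed (XX 1.40, adjusted p = 0.257; XY -1.15, adjusted p = 0.224). Compared directly, Igfbp7 was lower in -KTS KO than in +KTS KO in XX (-4.56, adjusted p = 0.00184, and -5.20 without XX -KTS KO replicate 2) and in XY (-4.30, adjusted p = 0.00225, and -4.96 without XY -KTS KO replicate 1). Igfbp7 was higher in XY WT than in XX WT (2.18 ± 0.622, adjusted p = 0.046), but the difference was 0.72 without XY WT replicate 1 (adjusted p = 0.484), and the call was also lost without XX WT replicate 1 or 2 (adjusted p = 0.165 and 0.226).

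Igfbp5 and Igfbp4 moved differently from these. Igfbp5 was at 230 and 360 CPM in XX WT and lower in XY WT, at 120 and 147 CPM. It lay between 376 and 528 CPM in all 8 knockout libraries. The gene rose in XY -KTS KO (1.69 ± 0.198, adjusted p = 0.000394) and XY +KTS KO (1.51 ± 0.197, adjusted p = 0.0019), and it stayed past the threshold in both without any 1 library. In XX the differences were 0.61 (adjusted p = 0.0602) and 0.76 (adjusted p = 0.0549). Igfbp4 was at 379 and 404 CPM in XX WT, against 220 and 199 CPM in XX -KTS KO and 164 and 149 CPM in XX +KTS KO. It fell in both (-0.84 ± 0.222, adjusted p = 0.0302, and -1.28 ± 0.224, adjusted p = 0.0134), and each call was lost without any 1 of the 4 libraries compared (adjusted p = 0.101 to 0.171 and 0.0602 to 0.119). In XY, Igfbp4 was at 300 and 288 CPM in WT, 286 and 240 CPM in -KTS KO and 289 and 155 CPM in +KTS KO, and no difference passed. Igfbp3, the main carrier of IGFs in the circulation, was at 15.6 to 57.0 CPM and passed in no comparison of somatic cells. Igfbp2 and Igfbp5 were also lower in XY WT than in XX WT (-1.64, adjusted p = 0.00449, and -1.07, adjusted p = 0.00709), the second call being lost without XX WT replicate 2 (-0.75, adjusted p = 0.061) or XY WT replicate 1 (-0.99, adjusted p = 0.0666).

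**Figure D2:**
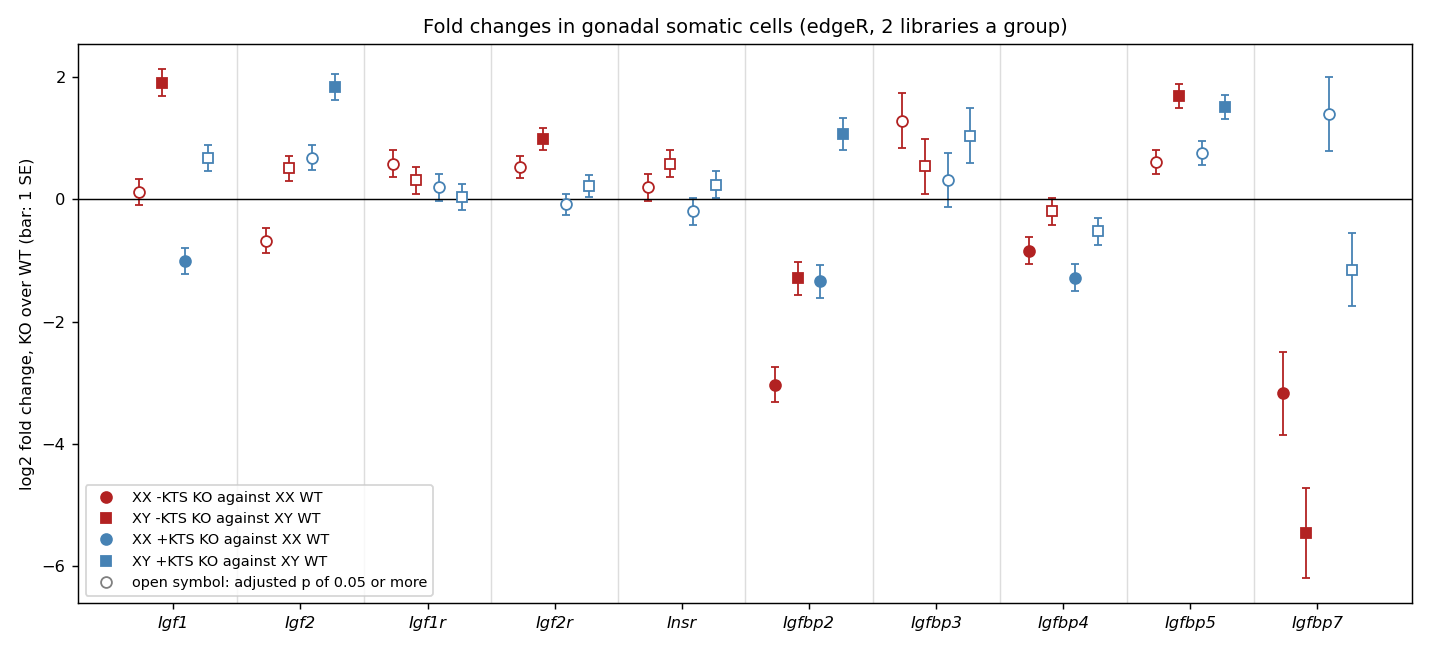
Log2 fold change of each IGF member in gonadal somatic cells with its standard error (SE), for -KTS KO and +KTS KO against WT of the same sex. Filled points passed a false discovery rate of 0.05. Bars are 1 SE, red is -KTS KO, blue is +KTS KO, circles are XX, squares are XY. Igfbp2 and Igfbp7 lie below 0 for -KTS KO in both sexes, while Igf2 and Igfbp5 lie above 0 for XY +KTS KO (1.84 and 1.51).

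Counted over the family, 3 of the 10 members passed in XX -KTS KO against XX WT, all lower, where 16.3% of all 17715 genes tested passed. In XY -KTS KO against XY WT, 5 passed (3 higher, 2 lower), against 23.5% of all genes. In XX +KTS KO, 3 passed, all lower, against 5.0%, and in XY +KTS KO 3 passed, all higher, against 12.3%. Between the WT sexes 5 passed (1 higher in XY, 4 lower), against 13.3%. Between -KTS KO and +KTS KO, 5 passed in XX and 5 in XY (2 higher and 3 lower each), against 18.5% and 21.6%. The interaction of genotype and sex passed for 2 members in each genotype, against 3.04% for -KTS KO and 3.86% for +KTS KO. The median log2 fold change of the 10 members was 0.16, 0.52, 0.06 and 0.46 in XX -KTS KO, XY -KTS KO, XX +KTS KO and XY +KTS KO, beside 0.01, 0.02, 0.00 and 0.05 over all genes tested. With 10 genes these shares are coarse, and the comparisons of the 2 genotypes in 1 sex share their WT libraries.

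Where the members were expressed was read from cell classes rebuilt by clustering and named from marker genes. Their cells need not be those of the study's own classes of like name, so that levels and changes within a class can depend on how it was drawn. Levels in WT were ranked over 5 classes, namely supporting, interstitial, coelomic, endothelial-like and germ-like cells. Among these, endothelial-like cells had the highest mean level of Igf2 in both sexes, at 761 CPM in XX (615 and 908 CPM) and 371 CPM in XY (252 and 489 CPM). This class held 2 clusters, so its mean depends on their mix. Cluster 18 was at 764 and 1180 CPM in XX WT and 420 and 752 CPM in XY WT. Cluster 27, with 20.8% and 47.3% of the class, was at 257 and 252 CPM and at 111 and 170 CPM. In XX WT, supporting cells followed for Igf2 with 353 CPM, but supporting, interstitial and coelomic cells overlapped with their neighbours in the order. In XY WT, coelomic cells (200 CPM) lay above interstitial (133 CPM) and supporting cells (114 CPM), which overlapped. Germ cells were lowest, at 6.95 CPM in XX and 2.73 CPM in XY, and levels this low in droplet data were not read as expression. Igf1 followed the same order at the top and bottom, and supporting cells came next for it in XX WT (88.2 CPM). In XY WT supporting cells (mean 17.0 CPM, 9.6 to 24.4 CPM) lay below coelomic cells and overlapped with interstitial cells (16.5 to 22.7 CPM). For Igf1 in XX WT, cluster 18 was at 89.7 and 86.7 CPM and cluster 27, with 37 and 51 cells, at 171 and 141 CPM.

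The receptors and binding proteins had other orders over the same 5 classes. Igf2r was the one member with germ cells in mid-rank in both sexes (36.3 CPM in XX and 27.9 CPM in XY), above supporting cells (24.9 and 18.8 CPM). Igf1r was lowest in germ cells (2.49 and 3.02 CPM) and next lowest in supporting cells (16.3 and 25.2 CPM). Igfbp3 stood out in endothelial-like cells, with 191 and 276 CPM in XX WT and 108 and 238 CPM in XY WT, where none of the other 4 classes exceeded 36.2 CPM. Its high level was that of cluster 18 (228 to 427 CPM over the WT libraries), while cluster 27 held 7.71 to 46.7 CPM. Igfbp5 was the reverse, at 6.12 to 29.0 CPM in endothelial-like cells and 157 to 613 CPM in interstitial and coelomic cells. Igfbp2 was highest in coelomic-epithelium-like cells (441 CPM in XX and 194 CPM in XY), and Igfbp7 in XX WT was at 111 and 56.2 CPM in endothelial-like cells and 56.4 and 56.0 CPM in interstitial cells, against 4.25 and 4.44 CPM in supporting cells. Igfbp4 was highest in endothelial-like cells, at 577 to 650 CPM over the 4 WT libraries.

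**Figure D3:**
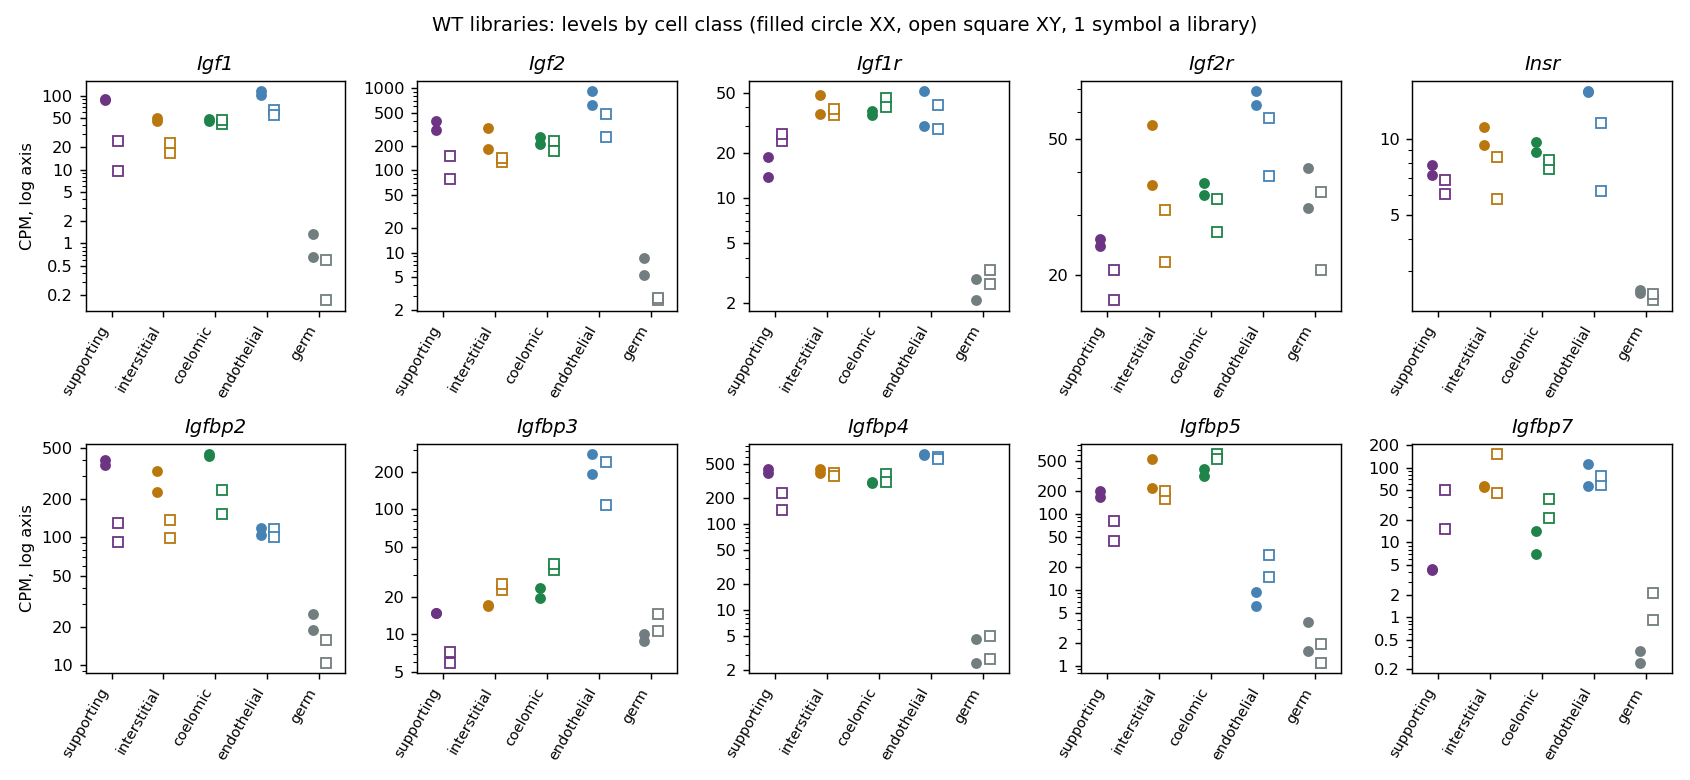
CPM of each member in 5 cell classes of the XX WT and XY WT libraries on a log axis, filled circles for XX and open squares for XY, 1 symbol per library. Endothelial-like cells are the highest class for Igf2 (252 to 908 CPM) and Igfbp3 (108 to 276 CPM) and are low for Igfbp5 (6.12 to 29.0 CPM), while germ-like cells are low for most members but not for Igf2r (20.7 to 41.1 CPM).

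Within supporting lineage cells, which give rise to Sertoli and granulosa cells, Igf2 separated the genotypes more widely than in the somatic sums. XX WT held 313 and 392 CPM and XY WT 77.5 and 151 CPM, while the -KTS KO libraries held 42.6 and 64.4 CPM in XX and 47.5 and 69.9 CPM in XY. The +KTS KO libraries held 630 and 708 CPM in XX and 574 and 703 CPM in XY. All -KTS KO values lay below, and all +KTS KO values above, every WT value. Igf2 fell in XX -KTS KO (-2.63, adjusted p = 0.000275) and in XY -KTS KO (-0.93, adjusted p = 0.0377), and rose in XY +KTS KO (2.38, adjusted p = 0.000481, and 2.59 without XY +KTS KO replicate 1). The difference in XX +KTS KO, 0.92, did not pass (adjusted p = 0.115). The XY -KTS KO call was lost without XY WT replicate 2 (-0.44, adjusted p = 0.339), without XY -KTS KO replicate 1 (-0.68, adjusted p = 0.218) and, narrowly, without either XX +KTS KO library (adjusted p = 0.0554 and 0.0555). In the part of the lineage called pre-supporting-like, present in every group, the order was the same, with 42.6 to 70.0 CPM in -KTS KO, 99.8 and 174 CPM in XY WT, 405 and 468 CPM in XX WT and 632 to 721 CPM in +KTS KO.

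Further members changed within supporting cells, though Insr passed in none of the 4 comparisons there. Igf1 rose in XY -KTS KO, from 9.60 and 24.4 CPM to 114 and 119 CPM (2.81, adjusted p = 0.000168, and 3.56 without XY WT replicate 2). Igfbp2 fell in XX -KTS KO from 402 and 367 CPM to 42.6 and 51.6 CPM (-2.94, adjusted p = 0.00276) and in XX +KTS KO to 76.2 and 52.0 CPM (-2.57, adjusted p = 0.0177), the second call being lost without XX +KTS KO replicate 2 (-2.31, adjusted p = 0.174), XX +KTS KO replicate 1 (adjusted p = 0.104) or XX WT replicate 1 (adjusted p = 0.067). XY +KTS KO was split for Igfbp2, at 299 and 58.1 CPM. Igfbp5 rose in XY -KTS KO (1.40, adjusted p = 0.00254), XX +KTS KO (1.79, adjusted p = 0.00461) and XY +KTS KO (2.85, adjusted p = 0.000106), where it reached 405 and 558 CPM from 44.3 and 81.0 CPM. Igfbp3 and Igfbp4 fell in XX -KTS KO (-2.04, adjusted p = 0.00325, and -1.53, adjusted p = 0.00765). Igfbp3 fell in XY -KTS KO as well (-1.69, adjusted p = 0.00609) and Igf2r rose there (0.78, adjusted p = 0.0054). Igfbp7 fell in XY -KTS KO (-3.76, adjusted p = 0.00072, -2.56 without XY WT replicate 1 and -4.41 without XY WT replicate 2), but its difference in XX -KTS KO was -0.026 (adjusted p = 0.984). Likewise the difference of Igfbp2 in XY -KTS KO, -0.74, did not pass in supporting cells (adjusted p = 0.288). For -KTS KO, 5 members passed in XX and 6 in XY, against 17.3% and 30% of the genes tested in supporting cells, and for +KTS KO 4 passed in XX and 2 in XY, against 4.69% and 22.3%. Some of these calls were lost in fits without 1 library. That of Igf1r in XX -KTS KO (1.02, adjusted p = 0.00822) was lost without XX WT replicate 1. It was also lost with cells clustered at a resolution of 0.4 (adjusted p = 0.0512). Igfbp4 was lost in XX -KTS KO without either XX -KTS KO library, and in XX +KTS KO (-1.99, adjusted p = 0.00719) without either XX +KTS KO library. Igfbp3 in XX +KTS KO (-1.80, adjusted p = 0.0431) was lost without any 1 of 7 libraries, not all of them in the comparison. It was -3.48 without XX +KTS KO replicate 1, which leaves replicate 2 with 3 UMIs of Igfbp3.

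The supporting class was held by different clusters in different groups, with cluster 3 holding 79.8% of its cells in XX WT, cluster 11 holding 60.2% in XY WT, cluster 5 holding 99.2% and 99.6% in XX and XY -KTS KO, and cluster 10 holding 92.2% in XY +KTS KO, nearly all from replicate 1. XX +KTS KO gave only 306 and 116 supporting cells, and XY +KTS KO replicate 2 gave 191. Fetal Leydig cell markers summed to 410 to 601 CPM in the supporting cells of XX +KTS KO and 163 to 374 CPM in those of XY +KTS KO, against 49.0 to 154 CPM in the other 4 groups. Other markers moved with genotype in the same class. Coelomic markers summed to 72.3 and 113 CPM in XY WT against 385 and 362 CPM in XY -KTS KO, and to 350 to 419 CPM in XX WT and XX -KTS KO alike. In +KTS KO they were at 177 and 176 CPM in XX and 191 and 186 CPM in XY, below XX WT and above XY WT. Interstitial markers summed to 115 to 139 CPM in the 4 WT libraries against 266 to 376 CPM in the 4 -KTS KO libraries. The 10 immediate early genes summed to 434 and 472 CPM in XX WT, 795 and 792 CPM in XX -KTS KO and 948 and 713 CPM in XX +KTS KO. In XY they summed to 885 and 625 CPM in WT, 1010 and 1160 CPM in -KTS KO and 3380 and 745 CPM in +KTS KO. Of XY WT somatic cells, 26.6% and 27.1% were Sertoli-like, against at most 0.0394% in XY -KTS KO. In pre-supporting-like cells alone, Igfbp5 was at 110 and 113 CPM in XY WT and 172 and 151 CPM in XY -KTS KO. Igf1 was at 28.8 and 36.6 CPM there against 114 and 119 CPM. Igfbp2 was at 48.5 and 77.7 CPM against 64.8 and 66.0 CPM, and Igfbp7 at 51.0 and 8.37 CPM against 2.94 and 1.94 CPM. The part of the differing clusters, subclasses and markers in the levels of Igf2, Igf1, Igfbp5 and the other members was not tested.

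Interstitial-progenitor-like cells, the precursors of steroidogenic and stromal cells, gave another direction for Igf2. It was at 127 and 140 CPM in XY WT and at 271 and 367 CPM in XY -KTS KO (1.14, adjusted p = 0.0109), and at 368 and 464 CPM in XY +KTS KO (1.5, adjusted p = 0.0141). Igf2 was therefore higher in XY -KTS KO interstitial cells and lower in XY -KTS KO supporting cells than in WT, though the difference between the classes was not tested. The -KTS KO call was lost without either XY WT library (adjusted p = 0.064 and 0.0632) or without XY -KTS KO replicate 2 (adjusted p = 0.0834), and the +KTS KO call without either XY WT library (adjusted p = 0.117 and 0.0714). Igfbp2 fell to 28.4 and 27.1 CPM in XX -KTS KO from 330 and 228 CPM (-3.29, adjusted p = 0.000495), and to 27.4 and 29.6 CPM in XY -KTS KO from 98.6 and 137 CPM (-2.16, adjusted p = 0.00121). Igfbp7 fell to 1.01 and 2.91 CPM from 56.4 and 56.0 CPM in XX (-4.93, adjusted p = 0.00166) and to 3.59 and 1.24 CPM from 152 and 45.4 CPM in XY (-5.54, adjusted p = 0.000428). Leaving out single libraries moved Igfbp7 between -5.73 (without XX -KTS KO replicate 2) and -4.28 (without XX -KTS KO replicate 1) in XX and between -6.50 (without XY -KTS KO replicate 1) and -4.32 (without XY WT replicate 1) in XY, with both calls kept.

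Igf1 rose in the interstitial cells of -KTS KO in both sexes, from 49.8 and 45.2 CPM to 85.0 and 98.5 CPM in XX (0.99, adjusted p = 0.00464) and from 16.5 and 22.7 CPM to 73.6 and 84.4 CPM in XY (1.90, adjusted p = 0.000166). In XX +KTS KO it was at 22.1 and 24.2 CPM (-1.02, adjusted p = 0.0439), a call lost without any 1 of 8 libraries (adjusted p = 0.0662 to 0.306). Igfbp5 rose in XY -KTS KO (1.75, adjusted p = 0.00308) and in XY +KTS KO (1.38, adjusted p = 0.0299), the second call being lost without any 1 of 6 libraries (adjusted p = 0.051 to 0.213). Igf2r rose in XY -KTS KO (1.21, adjusted p = 0.00926), but not past the threshold without XY WT replicate 1 (adjusted p = 0.0764) or XY -KTS KO replicate 2 (adjusted p = 0.0652). Insr passed there too (0.76, adjusted p = 0.0449), and its call was lost without any 1 of 10 libraries (adjusted p = 0.0545 to 0.271). The counts were 3, 7, 1 and 2 members in XX -KTS KO, XY -KTS KO, XX +KTS KO and XY +KTS KO, against 13.9%, 25.3%, 0.409% and 6.23% of genes. Cluster 1 held 98.8% and 99.3% of the interstitial cells of XX and XY -KTS KO, while those of WT lay mostly in clusters 6, 12 and 23 in XX and in clusters 8 (52.4%) and 6 (41.2%) in XY. The XY +KTS KO cells were mainly in cluster 17 (49.4%), which was led by Btg2, Egr1 and Fos and drew 95.9% of its cells from that group, and in cluster 12 (34.9%). The XX +KTS KO cells lay mainly in clusters 12 (47.2%) and 6 (30%). Within the interstitial class, summed coelomic markers went from 715 and 531 CPM to 330 and 356 CPM in XX -KTS KO and from 578 and 536 CPM to 275 and 271 CPM in XY -KTS KO. Summed pre-supporting markers went from 302 and 292 CPM to 45.6 and 86.1 CPM in XX and from 183 and 171 CPM to 78.5 and 66.8 CPM in XY. The part of either list in the members' differences was not tested.

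In the class named coelomic-epithelium-like from markers of the gonad's surface layer, Igfbp2 and Igfbp7 again fell in -KTS KO. Igfbp2 went from 435 and 447 CPM to 58.7 and 46.3 CPM in XX (-3.02, adjusted p = 0.000194) and from 153 and 236 CPM to 53.9 and 43.5 CPM in XY (-1.91, adjusted p = 0.00658). Igfbp7 went from 7.03 and 14.2 CPM to 0.458 and 0.812 CPM in XX (-4.07, adjusted p = 0.000644) and from 38.2 and 21.4 CPM to 0.884 and 0.48 CPM in XY (-5.19, adjusted p = 0.00137). In each case the 2 -KTS KO libraries were below both WT libraries by a wide margin. The XY WT side rested on 63 and 194 cells, and without XY WT replicate 2 neither XY call was kept (Igfbp2 -1.55, adjusted p = 0.22; Igfbp7 -5.73, adjusted p = 0.0595), while that of Igfbp2 was also lost without XY -KTS KO replicate 2 (adjusted p = 0.0655). In XX the value of Igfbp7 was -3.45 without XX WT replicate 2. In XX +KTS KO, Igfbp7 rose to 65.3 and 56.3 CPM (2.54, adjusted p = 0.00585), but it was 2.18 without XX WT replicate 1 (adjusted p = 0.0614), 3.14 without XX WT replicate 2, and 0.68 (adjusted p = 0.645) with cells clustered at a resolution of 0.4. In the same cells and comparison, summed pre-supporting markers went from 200 and 195 CPM to 395 and 438 CPM, fetal Leydig markers from 14.5 and 9.79 CPM to 26.5 and 39.6 CPM and the 10 immediate early genes from 437 and 321 CPM to 633 and 1090 CPM. Their part in the Igfbp7 result was not tested. Igfbp4 passed in XX -KTS KO (-1.0, adjusted p = 0.0421) and was lost without any 1 of 8 libraries (adjusted p = 0.052 to 0.277).

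In coelomic cells of -KTS KO, 3 members passed in XX and 2 in XY, against 5.06% and 1.77% of genes. In those of +KTS KO, 1 passed in XX, against 2.65%, and 0 in XY, against 0.0979%. In the last comparison edgeR gave 6 members at an unadjusted p below 0.05, and 1676 of 15323 genes. The median log2 fold change in edgeR was -0.0469 for the members, beside 0.0437 over all genes. DESeq2 called 2 members there, Igf2 (adjusted p = 0.00883) and Igfbp5 (adjusted p = 0.00135), and its share of all genes is not given here. The coelomic class lay mainly in cluster 15 in WT (75.4% and 82.9%), in clusters 7 and 13 in -KTS KO and in clusters 4 and 9 in +KTS KO. Cluster 13, with 40.2% and 36.0% of the class in XX and XY -KTS KO, had histone genes and Ecm1, Shisa3, Sfrp2 and Twist1 among its 10 leading genes, and the last 4 also lead cluster 1, which was named interstitial-progenitor-like. Summed interstitial markers in the coelomic class were at 1140 to 1520 CPM in XY WT and 803 to 1040 CPM in XY -KTS KO, beside 933 to 974 CPM and 1010 to 1050 CPM for its own markers. With cells clustered at a resolution of 0.4, a cluster led by the same genes as cluster 13 was named interstitial-progenitor-like. In the coelomic class so formed, Igfbp2 was at -1.97 in XX (adjusted p = 0.00499) and -1.32 in XY (adjusted p = 0.0478) and Igfbp7 at -5.79 (adjusted p = 0.000205) and -8.61 (adjusted p = 5.58e-05) in -KTS KO against WT. Coelomic cells made up 0.935% and 4.12% of XY WT somatic cells and 13.9% to 35.4% of the other groups.

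**Figure D4:**
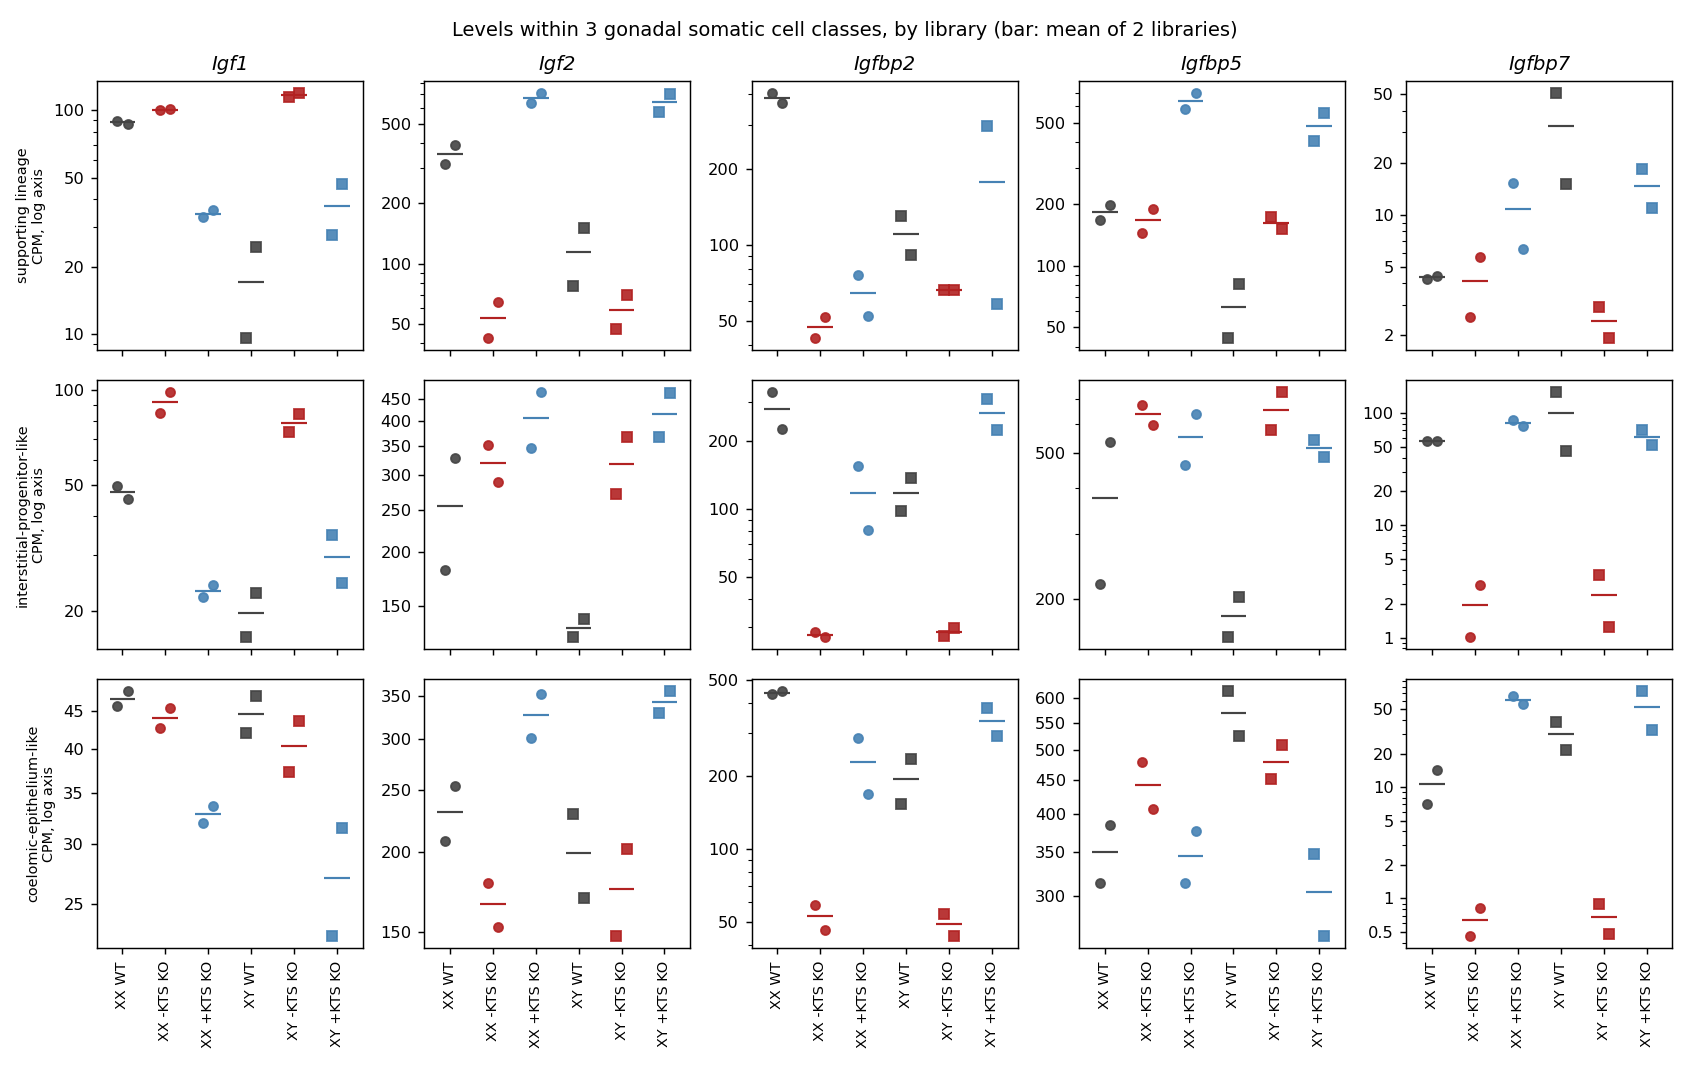
CPM of selected IGF members by library within supporting, interstitial-progenitor-like and coelomic-epithelium-like cells on a log axis, 1 point per library. Igfbp2 and Igfbp7 sit low in the -KTS KO libraries of the interstitial and coelomic classes (at most 58.7 and 3.59 CPM), and Igf2 sits highest in the +KTS KO supporting cells (574 to 708 CPM).

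Endothelial-like cells, which line the gonad's blood vessels, were few, and 3 comparisons could be tested, since XX -KTS KO replicate 1 gave 48 such cells. In XY -KTS KO 4 of the 10 members passed, against 7.02% of genes, and none passed in XX +KTS KO or XY +KTS KO, against 0.229% and 3.27% (edgeR, with 2 and 1 members at an unadjusted p below 0.05, and 0 called by DESeq2). Igfbp3 rose from 108 and 238 CPM to 765 and 1730 CPM (2.95, adjusted p = 0.00105), and it was 3.54 without XY WT replicate 2 and 2.27 without XY -KTS KO replicate 2, past the threshold without any 1 library. Igfbp2 was higher in these cells, at 168 and 239 CPM against 115 and 99.8 CPM (0.996, adjusted p = 0.0243), the opposite direction to the interstitial and coelomic cells of the same comparison. Igfbp7 fell from 59.6 and 76.4 CPM to 8.93 and 0.518 CPM (-3.65, adjusted p = 0.0218), but the 2 -KTS KO libraries differed widely. They held 21 UMIs and 1 UMI, the second under a floor of 3 UMIs (1.55 CPM). The fold change was -6.88 without replicate 1 of XY -KTS KO, a value that rests on that 1 UMI. It was -2.81 without replicate 2, where the call was lost. The calls of Igfbp2 and Igfbp7 were lost without XY WT replicate 1 (adjusted p = 0.0831 and 0.0727) or 2 (adjusted p = 0.173 and 0.0712), that of Igfbp2 also without XY -KTS KO replicate 2 (adjusted p = 0.174), and that of Igfbp4 (0.66, adjusted p = 0.0394) without any 1 of 7 libraries (adjusted p up to 0.224). The class held 2 clusters, and cluster 27, led by Etv2, Clec1b and Cldn5, had 47.3% of the XY WT cells and none of the XY -KTS KO cells. In cluster 18 alone, XY WT was at 228 and 427 CPM for Igfbp3, 64.0 and 59.7 CPM for Igfbp2 and 68.4 and 115 CPM for Igfbp7, while in cluster 27 it was at 7.71 and 10.3 CPM, 158 and 148 CPM, and 52.1 and 29.3 CPM. All XY -KTS KO values above are from cluster 18, so within that cluster they lay on the same side of XY WT for each of the 3 genes, though this was not tested. Markers of other cell types moved with genotype in the endothelial-like class: from XY WT to XY -KTS KO, pre-supporting markers went from 364 to 474 CPM to 35.7 to 43.0 CPM, interstitial markers from 178 to 222 CPM to 52.7 to 66.8 CPM, perivascular markers from 18.6 to 27.4 CPM to 51.0 to 139 CPM, and the class's own markers from 2290 to 2550 CPM to 2920 to 3240 CPM. Coelomic markers went from 59.6 and 52.0 CPM to 1.7 and 16.6 CPM, and pre-granulosa markers from 118 and 144 CPM to 229 and 251 CPM. Their part in these results was not tested. In germ-like cells 0 of 40 edgeR tests passed, against 0.0399% of all tests. There were 7 at an unadjusted p below 0.05, DESeq2 called 0, and edgeR with no filter on low counts called 7.

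Other genes of the pathway were followed in somatic cells as 3 lists of 47 genes. Of 12 secreted and receptor partners, 9 could be tested. Htra1, a serine protease that cleaves IGF-binding proteins, fell in -KTS KO from 24.1 and 24.7 CPM to 6.45 and 7.48 CPM in XX (-1.75 ± 0.235, adjusted p = 0.00136) and from 20.1 and 20.8 CPM to 9.09 and 7.14 CPM in XY (-1.37 ± 0.233, adjusted p = 0.00274). Pappa, which encodes a protease that frees IGFs by cutting IGFBP4 and IGFBP5, rose in -KTS KO (XX 1.74, adjusted p = 0.0384; XY 1.55, adjusted p = 0.0424) and fell in XY +KTS KO (-1.93, adjusted p = 0.0363), always at levels of at most 11.3 CPM. Stc1 and Stc2, stanniocalcins that inhibit PAPP-A, were higher in XY WT than in XX WT (1.97, adjusted p = 0.0145, and 2.67, adjusted p = 0.00544) and fell in XY -KTS KO (-2.84, adjusted p = 0.00167, and -1.83, adjusted p = 0.0147). Against WT of the same sex, -KTS KO had 1 list gene higher and 1 lower in XX (list median -0.14) and 1 higher and 3 lower in XY (-1.25), while +KTS KO had none past the threshold in XX (-0.13) and 1 lower in XY (-0.33). For this and the next lists, the shares of all genes tested that passed in XX and XY were 16.3% and 23.5% for -KTS KO and 5.0% and 12.3% for +KTS KO, and the medians over all genes were 0.01, 0.02, 0.00 and 0.05 in that order.

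Of the 29 intracellular genes of IGF and insulin signalling, all tested, -KTS KO had 4 higher and 3 lower in XX (list median 0.20) and 3 higher and 2 lower in XY (-0.03). For +KTS KO the list gave 2 higher and 2 lower in XX (0.01) and 1 higher and 1 lower in XY (0.14), to be read beside 16.3%, 23.5%, 5.0% and 12.3% of all genes in these 4 comparisons. Grb14, an adaptor that inhibits the insulin receptor, was at 59.7 and 52.5 CPM in XY WT and 16.0 and 17.8 CPM in XX WT. It fell to 7.49 and 9.13 CPM in XY -KTS KO (-2.80 ± 0.17, adjusted p = 1.31e-05) and to 9.36 and 7.60 CPM in XX -KTS KO (-0.93, adjusted p = 0.0047). In +KTS KO it lay between the WT sexes, at 22.8 to 30.2 CPM, having risen in XX (0.83, adjusted p = 0.0191) and fallen in XY (-1.28, adjusted p = 0.00164). Grb10, a related and imprinted adaptor, rose in XX -KTS KO from 111 and 135 CPM to 218 and 261 CPM (1.02 ± 0.174, adjusted p = 0.00431). Pik3r1, a regulatory subunit of phosphoinositide 3-kinase, was at 55.7 and 67.3 CPM in XX WT and 19.6 and 29.8 CPM in XY WT. It rose in XY -KTS KO to 95.4 and 97.2 CPM (1.94 ± 0.205, adjusted p = 0.000256) and fell in XX +KTS KO (-1.06, adjusted p = 0.0174). Its relative Pik3r3 fell from 26.8 and 26.2 CPM in XX WT to 9.19 and 10.5 CPM in XX -KTS KO and 7.40 and 11.8 CPM in XX +KTS KO (-1.37, adjusted p = 0.00639, and -1.44, adjusted p = 0.0138).

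Among 6 RNA-binding proteins of Igf2 mRNA and imprinted neighbours, H19 had values ordered much like those of Igf2. H19, a maternally expressed noncoding RNA beside Igf2, was at 561 and 595 CPM in XX +KTS KO and 697 and 510 CPM in XY +KTS KO, against 381 and 537 CPM in XX WT. The XY WT libraries held 82.7 and 154 CPM and the -KTS KO libraries 121 to 179 CPM. XY +KTS KO overlapped with XX WT, and all +KTS KO libraries were above the XY WT and -KTS KO libraries. It fell in XX -KTS KO (-1.52 ± 0.286, adjusted p = 0.00684) and rose in XY +KTS KO (2.27 ± 0.293, adjusted p = 0.00185). Igf2os, antisense to Igf2, rose in XY +KTS KO (1.27, adjusted p = 0.0134), and Airn, antisense to Igf2r, rose in XY -KTS KO (0.85, adjusted p = 0.0109). Both overlap a member on the other strand, and any part of the partner's reads in their counts was not tested. In the whole list, -KTS KO had 1 gene lower in XX (list median 0.09) and 1 higher in XY (0.25), while +KTS KO had none past the threshold in XX (0.04) and 2 higher in XY (0.22), beside the same shares of all genes of 16.3%, 23.5%, 5.0% and 12.3%.

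Across the 12 libraries, the genes whose log2 CPM followed each member most closely were ranked by Pearson's r among 5686 genes with a mean of at least 20 CPM, as a description over libraries that share 6 groups. For Igf1 these were Sh2d4a (0.975), Acaa2 (0.953) and Gm47547 (0.949), and for Igf2 they were Gkap1 (0.98), H19 (0.967) and Dcaf4 (0.956). Igfbp2 was followed by Tpst2 (0.963), Tnfrsf19 (0.96) and Pank1 (0.959), and Igfbp7 by Kcne1l (0.968), Aqp5 (0.958) and Tmem184a (0.957). The nearest genes were Amotl2 for Igf1r (0.944), Foxp1 for Igf2r (0.949), Mbtd1 for Insr (0.959), Eef1g for Igfbp4 (0.925) and Hp1bp3 for Igfbp5 (0.956). Igfbp3 had the weakest nearest gene, Rpl32 (0.786), so its levels over libraries were the least shared with other genes.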

How the data were processed

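The authors deposited 12 gene-by-barcode matrices of raw UMI counts, made with Cell Ranger 6.0 on mm10 per the labels; the 3′ kit version differs between the labels and the methods. Total counts were 108111924 to 147968666 per library. Barcodes below 1000 genes or above 10% mitochondrial counts were dropped (83513 of 103730 passed), and the highest-scoring doublets by Scrublet, 0.8% for each 1000 barcodes, were removed (6537), which left 76976 cells with a median of 10595 to 19274 UMIs per library. Cells were normalized with sctransform 0.4.2, clustered in Seurat 5.3.0 (3000 variable genes, 50 components, resolution 0.8) and named "X-like" from marker genes, with thresholds set after the clusters were seen; 13 marker classes were searched. The names differ in origin from those of the study, so shares were not compared with it. Gonadal somatic cells are all cells but those of the germ, endothelial, perivascular, immune, erythroid, mesonephric and Schwann-precursor classes.

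Deposited counts were summed per library and class (at least 50 cells) and tested over all genes and all 6 groups with edgeR 4.0.16 (filterByExpr, TMM, quasi-likelihood F test, Benjamini-Hochberg at 0.05). Standard errors were derived from F, as log2 fold change over its root. Classes were compared only where both libraries of each group had enough cells. Alternatives were DESeq2 1.42.0, library totals without TMM, no filter, a replicate block, all cell types with or without doublets, 3 other clusterings, the compared groups alone and each library left out. The edgeR test was run on counts simulated from a common profile, with changes placed only in XX -KTS KO. That check does not cover shifts in cell composition or a library that stands apart from its replicate.

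The members, gene lists and tests were chosen with earlier results of these data known, and members also appear in the study's own account of these libraries, so the choice of members is not independent of these data. Every member is named. From each gene list, at most 4 genes past the threshold per comparison, by size of change, could be named. The 10 immediate early genes were listed after the leading genes of the clusters were seen. Intervals between replicates rest on 2 libraries, and UMI counts limit precision only for the lowest levels.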

Additional observations from a re-analysis of the deposited data

Results flagged for a closer look

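For 4 results the test of the difference between the sexes passed in gonadal somatic cells, 2 members for each genotype. Of all genes tested, 3.04% passed for -KTS KO and 3.86% for +KTS KO. As given above, both Igf1 calls and the -KTS KO call of Igfbp2 were lost in fits without single libraries. Igf1 differed by 1.79 between the -KTS KO effect in XY and that in XX (log2 scale, edgeR's quasi-likelihood test, adjusted p = 0.0162), and by 1.68 for the +KTS KO effect (adjusted p = 0.017). Its level rose from 14.2 and 24.5 CPM in XY WT to 71.2 and 76.4 CPM in XY -KTS KO, while XX went from 70.2 and 67.7 CPM to 70.7 and 73.2 CPM. Igfbp2 differed by 1.74 for the -KTS KO effect (adjusted p = 0.0398), having fallen in both sexes but further in XX, and by 2.41 for the +KTS KO effect (adjusted p = 0.0106), having fallen in XX and risen in XY. The WT libraries of the sexes differed for both genes, and the causes were not tested.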

How the results depend on the processing

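Of 900 values of the members' log2 fold changes in gonadal somatic cells under alternatives other than leaving out a library, 847 kept their direction and their side of the threshold, 19 no longer passed, 30 newly passed and 4 reversed. The reversals were all of differences that had not passed: Igf1r in XY +KTS KO by DESeq2 (-0.0127), Igfbp3 between the WT sexes without TMM (-0.00553), and Igfbp3 between XY -KTS KO and XY +KTS KO with all cell types (0.371) and with doublets too (0.351). The cause was not tested. Scaling by library totals moved the median of all genes to 0.141 in XY +KTS KO and to 0.114 and 0.17 for the sex differences of -KTS KO and +KTS KO.

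The number of members past the threshold in XX -KTS KO was 3, and 7 by DESeq2, 6 with no filter, 5 with the replicate block and 6 with the compared groups alone. In the same order, the genes past it were 2881 of 17715, 3536 of 17715, 3200 of 25873, 2704 of 17715 and 3895 of 16631. In XX +KTS KO 3 members passed, and 5 by DESeq2, 5 with the compared groups alone, and 1 with all cell types, with or without doublets. The genes past it there were 886 of 17715, 1507 of 17715 and 1504 of 16758. With all cell types they were 447 of 18896, and 453 of 19131 with doublets too. For the sex difference of the -KTS KO effect 2 members passed, and 4 by DESeq2 and with no filter. The genes past it were 539 of 17715, 1320 of 17371 and 971 of 25873. For that of +KTS KO 2 members passed, and 4 with no filter and 1 with the compared groups alone. The genes past it were 684 of 17715, 1214 of 25873 and 255 of 17296. The tests past the threshold were 17 of 40 in supporting cells and 13 of 40 in interstitial cells (each 23 with no filter). They were 6 of 40 in coelomic cells (11 by DESeq2, 14 with no filter). In endothelial cells they were 4 of 30 (9 with no filter) and in germ cells 0 of 40 (7 with no filter). After clustering of log-normalized values, only 2 comparisons could be run in supporting cells, and 11 of 20 tests passed. For these classes, shares of all genes past the threshold are given above only for the main fit. The counts under alternatives, and those without 1 library below, are therefore not read as results about the members. With fewer samples in each fit, leaving out 1 library gave 1 to 3 members in XX -KTS KO, 4 to 5 in XY -KTS KO, 0 to 1 in XX +KTS KO, 2 to 4 in XY +KTS KO, 2 to 5 between the WT sexes, 4 to 5 in each comparison of the genotypes, 0 to 2 and 1 to 3 for the sex differences, and 13 to 21, 8 to 14, 3 to 8, 1 to 5 and 0 tests in the classes in the order above. Replicate numbers were not used to pair samples. Correlations of the deviations between replicates ran from -0.214 to 0.166 over 15 pairs of groups, which cannot exclude pairing within some groups. The replicate block, which changed the count in XX -KTS KO from 3 to 5, is given only as an alternative.

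Leaving out 1 library reversed 12 differences, none of which had passed. Over the libraries left out, Igf2r in XX +KTS KO ranged from -0.311 to 0.126, Igfbp7 in XY +KTS KO from -1.87 to 0.303 (without XY WT replicate 1), Insr in XY +KTS KO from -0.119 to 0.534, and Igf1r from -0.249 to 0.286 in XY +KTS KO and from -0.455 to 0.0915 for the sex difference of that genotype. Igfbp3 ranged from -0.0451 to 0.172 between the WT sexes, from -0.062 to 1.58 between XX -KTS KO and XX +KTS KO, from -0.0522 to 0.955 in XY -KTS KO and from -1.35 to 0.293 for the sex difference of -KTS KO. The 19 calls that ended under other alternatives were those of Igfbp4 in XX -KTS KO, Igf1 and Igfbp4 in XX +KTS KO, and Igf2r between the genotypes in XX and XY, each with all cell types (adjusted p = 0.0658, 0.0913, 0.0618, 0.206 and 0.0671) and with doublets too, Igf2r between the genotypes in XX without TMM (adjusted p = 0.0768), Igfbp2 in XY +KTS KO, Igf2r between the genotypes in XY and the sex difference of Igf1 in +KTS KO with the compared groups alone (adjusted p = 0.0971, 0.059 and 0.0716), and Igfbp7 between the WT sexes with 5 of the alternatives (adjusted p = 0.0524 to 0.0914). With 2 libraries a group, small differences cannot be seen at this depth of replication.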
